A study of Mus musculus with 8 samples.

Results

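The JAK kinases and STAT factors examined here are 9 genes: the kinases Jak1, Jak2, Jak3 and Tyk2, and the transcription factors Stat2, Stat3, Stat4, Stat5a and Stat6. They were chosen by gene symbol from 53801 genes in the deposited table of normalized counts, and each symbol matched the Ensembl identifier beside it. Other STAT genes were not analysed here. The cells were microglia, the resident macrophages of the brain, sorted from mouse cortex at postnatal day 30. They were collected 4 h after IL-33 (mice 1 to 4) or vehicle (mice 5 to 8, headed PBS in the table) was injected into a cerebral ventricle on 1 side, with 2 females and 2 males in each group. The strain is not given in the sources used here, and nothing says whether mice were littermates. Mice of a group are taken as separate samples, so p-values measure the spread between them.

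Janus kinases (JAKs) are tyrosine kinases held on the inner side of cytokine receptors, which have no kinase of their own. When a cytokine joins the receptor chains, the kinases phosphorylate the chains and the signal transducers and activators of transcription (STATs) that dock there, and paired STATs then enter the nucleus and bind target genes. IL-33 itself signals through a receptor of the interleukin-1 family that uses the adaptor MyD88 and not a JAK. In microglia and other macrophages, JAKs and STATs pass on interferons, IL-6, IL-10, IL-4 and colony-stimulating factors.

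Values are normalized counts, that is, read counts divided by the authors' size factor for each library, and groups are given as mean ± SD with n = 4 mice each. Recovered totals ran from 6989640 to 9323677 reads per library. The marker genes of microglia summed to 112958 to 122174 normalized counts in IL-33 mice, against 189182 to 213392 in vehicle mice, with 9 of 12 markers lower, 1 higher and 0 unread. Marker sums of T cells were 60.5 to 90.4 in IL-33 mice and 24.0 to 41.2 in vehicle mice, with Cd3d, Cd3e and Cd2 at 0 reads throughout. That sum was carried by Cd5, at 46.3 ± 7.49 in IL-33 mice and 2.05 ± 1.72 in vehicle mice, while Cd247 was not called, at 18.02 ± 6.09 and 23.1 ± 6. Marker sums of NK cells were 17.8 to 23.5 in IL-33 mice and 49.1 to 80.8 in vehicle mice, with 6 of 9 markers at 0. This sum was carried by Klrd1, at 3.64 ± 3.50 in IL-33 mice and 61.1 ± 14.7 in vehicle mice, while Klrb1c, at 5.55 ± 1.85 and 1.42 ± 0.89, lay the other way. Neutrophil markers summed to at most 6.95 in any mouse, with 6 of 9 at 0. Dendritic cell markers, led by Fscn1, summed to 11168 to 13115 in IL-33 mice against 2126 to 2668 in vehicle mice, with 5 of 6 tested markers higher and Cd209a at 0. Sums for monocytes (165 to 196 in IL-33 mice and 85.1 to 102 in vehicle mice) and astrocytes (2414 to 2675 and 1566 to 1854) were also higher in every IL-33 mouse. Those for border macrophages (288 to 362 in IL-33 mice and 668 to 785 in vehicle mice) and B cells (1411 to 1734 and 2609 to 3391) were lower in every IL-33 mouse. The part of other cell types in the results below was not tested. Vehicle mouse 6 stood apart, with a chi-square per degree of freedom of 15.5 to 18.8 against the other vehicle mice, which differed among themselves by 4 to 8.1. Without it the same count of 6 members was called higher.

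The first question was which of the 9 genes differed with IL-33. Of the 9, Stat4 was below the filter on low values and 8 were tested. Jak1, Jak2, Tyk2, Stat2, Stat3 and Stat5a rose, 0 fell, and Jak3 and Stat6 were not called (limma, adjusted p under 0.05 over all genes). Among all 15110 tested genes 57.7% were called, 29.2% higher and 28.5% lower. The median log2 fold change was 0.57 over the 8 tested members and 0.02 over all tested genes. In each of the 6 genes that rose, every IL-33 mouse lay above every vehicle mouse, and over all tested genes 26.7% were separated in this direction and 25.6% in the other. In bulk RNA, more cells with a transcript and more transcript per cell cannot be told apart.

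**Figure D1:**
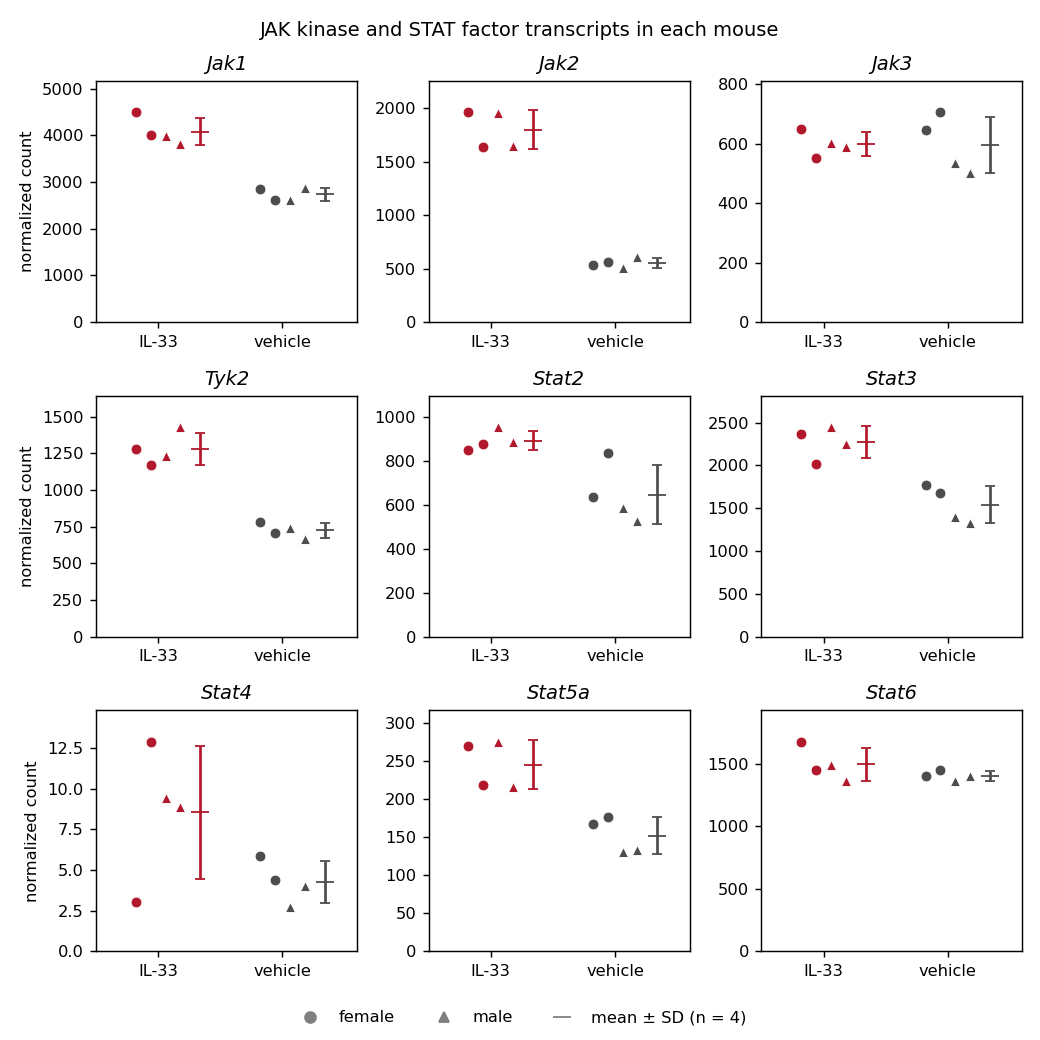
Normalized count (linear axes from 0) of each gene in the 4 IL-33 mice (red) and the 4 vehicle mice (grey), circles for females and triangles for males, with mean ± SD beside them. The groups are apart for Jak1, Jak2, Tyk2, Stat2, Stat3 and Stat5a and overlap for Jak3, Stat4 and Stat6.

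Jak2 changed most. Jak2, the kinase of the receptors for granulocyte-macrophage colony-stimulating factor, erythropoietin, interferon gamma and IL-12, lies on chromosome 19 (29251828 to 29313080, plus strand, GRCm38). Jak2 was at 1961, 1641, 1956 and 1646 in IL-33 mice 1 to 4, against 531, 564, 502 and 611 in vehicle mice 5 to 8. The lowest IL-33 mouse was 2.69 times the highest vehicle mouse, and within the IL-33 group mice 1 and 3 lay above mice 2 and 4. The means were 1801 ± 182 with IL-33 and 552 ± 46.4 with vehicle, a 3.26-fold ratio. The log2 fold change was 1.70 ± 0.09 (SE, limma adjusted p = 6.71e-11). A larger rise was seen in 5.04% of all tested genes. Its 25 exon blocks overlap no other annotated gene, and none of its transcript's 50-base stretches occurs in a transcript of another gene.

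The promoter windows of Jak2, which rose most, of Jak3, which was not called, and of Stat2, the tested member with a motif match in its single window, are shown to compare how they are built. Each runs from 250 bases before to 50 bases after the RefSeq start (GRCm38.p6), 5′ to 3′ on the gene's own strand, at chr19:29251553-29251852 for Jak2, chr8:71676133-71676432 for Jak3 and chr10:128270248-128270547 for Stat2. Capitals mark the interferon-stimulated response element.
Jak2: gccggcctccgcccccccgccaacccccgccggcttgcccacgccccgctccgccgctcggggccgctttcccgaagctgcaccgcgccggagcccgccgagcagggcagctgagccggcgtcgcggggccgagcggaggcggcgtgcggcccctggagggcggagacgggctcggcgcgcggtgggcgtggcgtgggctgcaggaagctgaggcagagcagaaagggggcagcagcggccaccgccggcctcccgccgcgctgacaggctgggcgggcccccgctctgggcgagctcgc
Jak3: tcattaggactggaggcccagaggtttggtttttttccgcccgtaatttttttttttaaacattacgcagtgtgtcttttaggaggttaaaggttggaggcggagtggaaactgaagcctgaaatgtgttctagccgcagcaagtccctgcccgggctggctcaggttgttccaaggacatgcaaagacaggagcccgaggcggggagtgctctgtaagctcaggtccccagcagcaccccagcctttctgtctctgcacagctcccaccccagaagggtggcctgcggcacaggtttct
Stat2: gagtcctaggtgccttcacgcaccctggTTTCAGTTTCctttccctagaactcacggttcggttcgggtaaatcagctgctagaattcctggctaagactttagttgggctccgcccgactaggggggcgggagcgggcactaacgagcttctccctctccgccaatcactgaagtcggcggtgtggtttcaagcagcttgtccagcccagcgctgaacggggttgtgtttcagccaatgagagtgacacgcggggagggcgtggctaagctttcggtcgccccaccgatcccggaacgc
The Jak2 window is 81% G and C with 44 CG dinucleotides, more than 97.8% of all promoter windows have. The Jak3 window is 54.3% G and C with 9 CG, close to the medians of 52.7% and 7 over 32851 windows. The Stat2 window holds 22 CG and 1 match to the response element, TTTCAGTTTC on the minus strand, at positions -222 to -213, with the start as 0.

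All 9 genes had at least 1 promoter window, 11 in all, since Stat4 and Stat5a have 2 each. The gamma-activated site TTCNNNGAA, a common STAT binding motif, was found in 0 of the 11 windows, and in 8.3% of all windows. The interferon-stimulated response element, searched as GAAA, any 2 bases and GAAA again, the motif of STAT2 with its partners, was found in the windows of Stat2 and in 1 of those of Stat4, and in 3.44% of all windows. The NF-kB consensus was matched in 1 Stat5a window, and in 4.51% of all windows. Both strands were searched, with no overlap between matches in these windows. A match is a run of letters and does not show binding.

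Tyk2, the kinase paired with the receptors for type I interferons, IL-12 and IL-23, rose next among the kinases. It lies on chromosome 9 (21104068 to 21131243, minus strand). Tyk2 was at 1280, 1173, 1234 and 1429 in IL-33 mice 1 to 4, against 785, 708, 739 and 668 in vehicle mice 5 to 8. IL-33 mouse 4 was the highest and vehicle mouse 8 the lowest, both males, and the groups were apart. The means were 1279 ± 109 with IL-33 and 725 ± 49.6 with vehicle. The log2 fold change was 0.82 ± 0.09 (SE, limma adjusted p = 3.88e-07).

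Jak1, which serves most JAK-coupled receptor families, had the highest normalized count of the 9. It lies on chromosome 4 (101152367 to 101265282, minus strand). Jak1 was at 4489, 3997, 3995 and 3814 in IL-33 mice 1 to 4, against 2841, 2623, 2620 and 2863 in vehicle mice 5 to 8. IL-33 mouse 1 was above the other 3 IL-33 mice, and the groups were apart by a ratio of 1.33 between the nearest mice. With 4074 ± 290 in IL-33 mice and 2737 ± 134 in vehicle mice, the log2 fold change was 0.57 ± 0.07 (SE, limma adjusted p = 2.82e-06).

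Jak3, the kinase tied to the common gamma chain of interleukin receptors and best known from lymphocytes, did not pass the test. It lies on chromosome 8 (71676296 to 71690575, plus strand). Jak3 was at 649, 552, 602.5 and 589 in IL-33 mice 1 to 4, against 645, 706, 534.5 and 502 in vehicle mice 5 to 8. Both vehicle females lay above both vehicle males, and the IL-33 mice lay within the vehicle range. The log2 fold change was 0.01, with a 95% interval of -0.20 to 0.23 (limma adjusted p = 0.917), so a change of the size seen in Jak1 lies outside the interval. Its sign turned under some settings listed in the closing section. Insl3, on the same strand, covers 7.55% of its exon bases and averaged 10.5 normalized counts by itself. The part of lymphocytes in the level of Jak3 was not tested.

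Among the STATs, Stat5a had the largest log2 fold change. STAT5A relays colony-stimulating factor and common gamma chain cytokine signals. Its gene lies on chromosome 11 (100859351 to 100885169, plus strand). Stat5a was at 270, 218, 275 and 216 in IL-33 mice 1 to 4, against 167, 177, 130 and 133 in vehicle mice 5 to 8. Vehicle females were above vehicle males, and the groups did not overlap. The means were 245 ± 32.0 with IL-33 and 152 ± 23.7 with vehicle, on 972 and 636 reads in all. The log2 fold change was 0.69 ± 0.14 (SE, limma adjusted p = 0.00039). Of its transcript's 50-base stretches 10.8% also occur in transcripts of another gene, so part of its reads may be shared with a close copy. Its 3′ end overlaps that of Stat3, on the other strand, by 72 exon bases, and without a stated strand setting reads there cannot be assigned.

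Stat3, the factor that answers the IL-6 and IL-10 families, lies beside it on chromosome 11 (100885098 to 100939540, minus strand). Stat3 was at 2362, 2016, 2447 and 2253 in IL-33 mice 1 to 4, against 1773, 1672, 1392 and 1330 in vehicle mice 5 to 8. The vehicle females again lay above the vehicle males, and all IL-33 mice lay above both. With 2269 ± 187 in IL-33 mice and 1542 ± 214 in vehicle mice, the log2 fold change was 0.56 ± 0.09 (SE, limma adjusted p = 5.59e-05). The overlap with Stat5a covers 0.756% of the exon bases of Stat3.

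Stat2, which joins Irf9 in the complex ISGF3 that answers type I interferons, had the narrowest gap between groups. It lies on chromosome 10 (128270559 to 128292849, plus strand). Stat2 was at 851, 877, 954 and 886 in IL-33 mice 1 to 4, against 634, 837.5, 587 and 525.5 in vehicle mice 5 to 8. Vehicle mouse 6 came close to the IL-33 mice, and the lowest IL-33 mouse was 1.02 times this value. The means were 892 ± 43.7 with IL-33 and 646 ± 135 with vehicle. The log2 fold change was 0.49 ± 0.11 (SE, limma adjusted p = 0.00129), and 0.61 without vehicle mouse 6 (adjusted p = 6.09e-06). Its partner Irf9 averaged 700 ± 32.0 with IL-33 and 630 ± 63.3 with vehicle, and was not called (log2 0.16, limma adjusted p = 0.129).

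Stat6, the factor of IL-4 and IL-13 signalling, was abundant and not called. It lies on chromosome 10 (127642986 to 127660957, plus strand). Stat6 was at 1677, 1453, 1488 and 1366 in IL-33 mice 1 to 4, against 1400, 1448, 1359 and 1402 in vehicle mice 5 to 8. IL-33 mouse 4 lay inside the vehicle range, while the other 3 IL-33 mice lay above it. The log2 fold change was 0.09, with a 95% interval of -0.07 to 0.25 (limma adjusted p = 0.339), which leaves out the sizes seen in Stat2 and Stat3.

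Stat4, the factor of IL-12 signalling in T and NK cells, had few reads. It lies on chromosome 1 (51987148 to 52107189, plus strand). Stat4 had 3, 13, 10 and 8 reads in IL-33 mice 1 to 4, against 7, 4, 3 and 4 reads in vehicle mice 5 to 8. The groups overlapped, with IL-33 mouse 1 at the low end and the other 3 IL-33 mice above all vehicle mice. Pooled, these are 1.06 CPM (exact Poisson 95% interval 0.736 to 1.49) in the IL-33 group and 0.549 (0.325 to 0.867) in the vehicle group. The intervals cover counting error only, while the IL-33 mice themselves ran from 3 to 13 reads, and no difference between the groups was tested. An overlapping annotated gene, Gm28177, shares 26.7% of its exon bases, on the same strand.

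**Figure D2:**
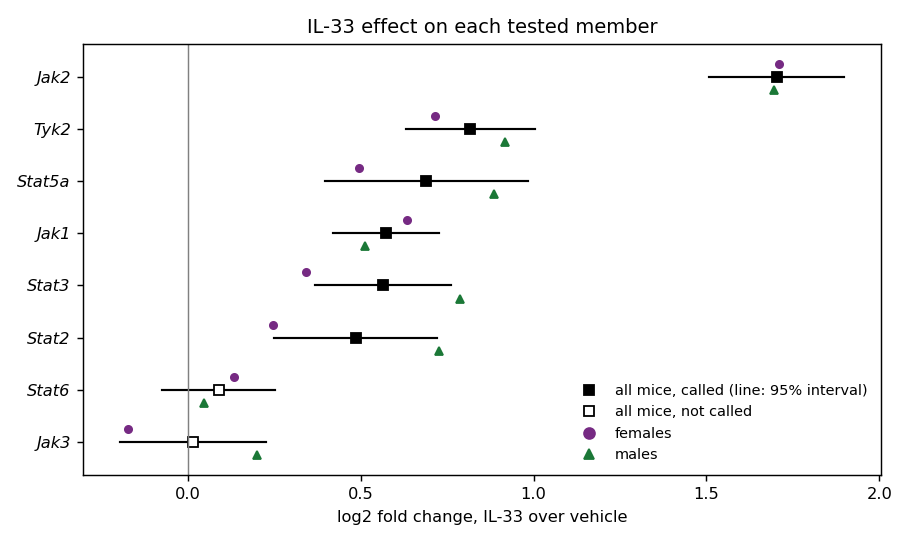
Log2 fold change of IL-33 over vehicle for the 8 tested genes, with squares for all mice (filled where called), lines for the 95% interval, circles for females and triangles for males. Jak2 stands at 1.70, the other 5 called genes between 0.49 and 0.82, and the intervals of Jak3 and Stat6 cross 0.

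Females and males were compared next, with 2 mice per treatment and sex. In both sexes Jak1, Jak2, Tyk2 and Stat3 were called higher, where 21.3% of all genes were called higher in females and 24.9% in males. Stat2 was at a log2 fold change of 0.73 in males (limma adjusted p = 1.31e-05) and 0.24 in females (adjusted p = 0.215). Of the 2 vehicle females, 1 is mouse 6, which stood apart, with Stat2 at 837.5 against 634 in mouse 5. A sex difference and the part of this mouse cannot be told apart. Stat5a was at 0.88 in males (adjusted p = 0.000406) and 0.49 in females (adjusted p = 0.0572). Stat3 was at 0.79 in males and 0.34 in females (adjusted p = 0.0388). The difference between the sexes itself, males minus females, was 0.44 for Stat3 (95% interval 0.13 to 0.76) and 0.48 for Stat2 (0.08 to 0.88). After adjustment over all genes it was called for 0 of the 8 members by limma, edgeR or DESeq2 (limma adjusted p = 0.366 for Stat3 and 0.491 for Stat2). Unadjusted p was under 0.05 for 2 members by limma, 3 by edgeR and 2 by DESeq2, and for 8.31% of all genes by limma, where 0.00662% were called. For Jak2 the effect was 1.69 in males and 1.71 in females.

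Spread within groups differed between members. The coefficient of variation was largest for Stat4, which had few reads, at 47.7% among IL-33 mice and 30.5% among vehicle mice. That of Stat2 was 4.9% among IL-33 mice and 20.9% among vehicle mice, and that of Stat6 8.76% and 2.6%. In Stat2, vehicle mouse 6, which stood apart, was at 837.5, against 525.5 to 634 in the other vehicle mice.

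To compare levels between genes, normalized counts were divided by the length in kilobases of all exon bases of the gene, those of every annotated transcript together. On this scale Jak1 was the most abundant in both groups, at 564 ± 40.1 per kb with IL-33 and 379 ± 18.5 with vehicle. In vehicle mice Stat6 (319 ± 8.28 per kb) and Stat3 (162 ± 22.5) followed, then Jak3, Jak2, Stat2 and Tyk2 lay between 112 and 106 per kb, and neighbours among these 4 overlapped. In IL-33 mice Jak2 stood at 358 ± 36.1 per kb, level with Stat6 (340 ± 29.8, ranges overlapping), followed by Stat3 (238 ± 19.6), Tyk2 (186 ± 15.9), Stat2 (150.5 ± 7.38) and Jak3 (112 ± 7.53), each apart from the next. Stat5a (34.3 ± 4.48 per kb with IL-33 and 21.3 ± 3.33 with vehicle) and Stat4 (2.21 ± 1.05 and 1.10 ± 0.33) came last in both groups. With the length of the longest single transcript in place of all exon bases, a choice added after seeing the data, the order changed. In IL-33 mice Stat6 (396 ± 34.7 per kb) and Stat3 (376 ± 30.9) then stood beside Jak2 (358 ± 36.1), with overlapping ranges between neighbours. In vehicle mice Jak2 (110 ± 9.23 per kb) then came after Tyk2, Jak3 and Stat2, which lay between 147 and 150.1, though the ranges of Stat2 and Jak2 overlapped. Per kb of all exon bases, 94.7% of all tested genes had a lower level per kb than Jak2 in IL-33 mice and 78.5% in vehicle mice.

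The make-up of each family was set out as shares of its summed level per kb. The 4 kinases summed to 1220 ± 74.3 per kb with IL-33 and 706 ± 26.4 with vehicle, a ratio of 1.73. Jak2 took 29.6%, 28.3%, 31.5% and 27.9% of this sum in IL-33 mice 1 to 4, against 14.4%, 15.8%, 14.9% and 17.1% in vehicle mice 5 to 8. Jak1 held 46.2% ± 1.57 with IL-33 and 53.7% ± 1.98 with vehicle, and Jak3 9.16% ± 0.18 and 15.8% ± 2.27, so that both had a smaller share with IL-33 in every mouse although Jak1 itself rose. The share of Tyk2 overlapped between groups (15.3% ± 1.64 with IL-33 and 15.0% ± 1.05 with vehicle). The 5 STATs summed to 765 ± 45.3 per kb with IL-33 and 612 ± 50.9 with vehicle, a ratio of 1.25. Stat6 was the largest STAT share on this scale, 44.4% ± 2.26 with IL-33 and 52.3% ± 3.38 with vehicle, and Stat3 held 31.1% ± 1.51 and 26.4% ± 2.01, with overlap. By transcript length Jak2 held 22.3% ± 1.37 of the kinase sum with IL-33 and 11.4% ± 0.91 with vehicle, and Stat6 38.1% ± 2.13 and 45.9% ± 3.33 of the STAT sum, where Stat3 was above Stat6 in IL-33 mice 3 and 4. These shares follow from the levels above and carry no test of their own.

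**Figure D3:**
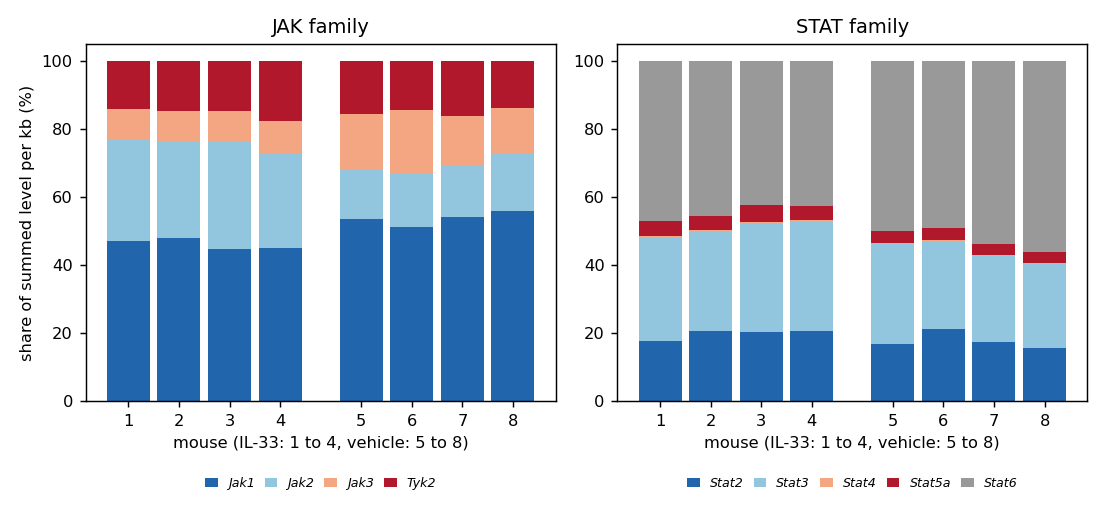
Share (%) of the summed level per kb of all exon bases taken by each JAK (left) and each STAT (right) in the 4 IL-33 mice and the 4 vehicle mice. Jak2 takes 27.9% to 31.5% in IL-33 mice and 14.4% to 17.1% in vehicle mice, and Stat6 is the largest STAT in all 8 mice on this scale, but not in IL-33 mice 3 and 4 by transcript length.

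In the authors' deposited table, which lists 7029 genes with an adjusted p of at most 0.00996, the same 6 members are present. The authors' deposited table gives log2 fold changes of 1.71 for Jak2, 0.82 for Tyk2, 0.70 for Stat5a, 0.57 for Jak1, 0.57 for Stat3 and 0.48 for Stat2.

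The other genes of the pathway were taken from 13 lists that share some members, 160 genes without the 9. Of these, 111 were tested, and 68 were higher, 21 lower and 22 not called with IL-33, with a median log2 fold change of 0.77 beside 0.02 for all genes. Among all tested genes 29.2% were called higher and 28.5% lower, and the small receptor lists are given as counts beside these shares. Of 7 tested receptor genes of the common gamma chain group and its partners, 3 rose and 2 fell. Il2rg, the common gamma chain itself, was at 361 ± 46.0 with IL-33 and 21.2 ± 2.53 with vehicle (log2 4.02, limma adjusted p = 3.14e-12), beside a Jak3 level that was not called. Il7r, which pairs with it for IL-7, fell to 51.8 ± 8.21 with IL-33, against 682 ± 74.2 with vehicle. Of 5 tested genes of the gp130 group 3 fell and 1 rose, with Lifr at log2 -2.70 and Il6ra at -1.37. The 1 that rose, Il27ra, was at 17.1 ± 6.51 with IL-33 and 4.04 ± 2.11 with vehicle. Il27ra passed the filter on low values only through the IL-33 mice, so it could be tested only because it was high there. When any 1 IL-33 mouse was left out, Il27ra went untested and 0 rose. Of 7 tested receptor genes for interferons and IL-10, 4 rose and 1 fell. The chains of the interferon gamma receptor parted, since Ifngr2, which binds JAK2, rose by 0.98 and Ifngr1, which binds JAK1, was at -0.82. Of 5 tested genes of the common beta chain and hormone group 2 rose and 2 fell, or 1 fell without IL-33 mouse 3 or 4 or vehicle mouse 5, 7 or 8. Csf2rb2 and Csf2rb, near-identical beta chain genes whose reads may be shared, were at 1.26 and 0.88. The single tested receptor gene for IL-12 and IL-23, Il12rb2, rose by 1.58.

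Inhibitors and target genes were more often called higher than lower, where 29.2% of all tested genes were called higher and 28.5% lower. These lists share genes, Socs3 among them, and were chosen with earlier results of these data known. Of 19 tested inhibitors of the pathway, 12 rose, 4 fell and 3 did not pass the test, with a median log2 fold change of 0.68. Socs3, which blocks gp130-bound JAKs, was at 2813 ± 197 with IL-33 and 232 ± 106 with vehicle (log2 3.72, limma adjusted p = 4.62e-05). Ptpn1, a phosphatase of JAK2 and TYK2, rose by 1.31, while Sh2b3, an adaptor that restrains JAK2, was at -1.24. Of 18 tested STAT3 targets 16 rose and 1 fell (median 1.80), with Saa3 at 166 ± 30.8 with IL-33 and 2.06 ± 2.93 with vehicle. Saa3 and Fos, both among the 16, passed the filter only through the IL-33 mice, so they could be tested only because they were high there. Of 11 tested STAT5 targets 8 rose and 2 fell (median 2.13), with Pim1, a kinase gene, at 510 ± 39.3 and 36.1 ± 9.05. Of 11 tested STAT6 targets 8 rose and 2 fell (median 0.94). Without IL-33 mouse 1, 2 or 4, 5 rose, and without any 1 vehicle mouse 1 fell. Ccl17, among the 8, reached the filter value of 10 only in IL-33 mice, and Ccl24, among the 2, only in vehicle mice. Each was thus untested without any 1 of those mice. The other rises lost without an IL-33 mouse were of genes that were still tested and no longer called. With all mice, the calls nearest the threshold were Arg1 (limma adjusted p = 0.0456) and Socs1 (limma adjusted p = 0.0359). The STAT6 targets that rose were led by Ccl22 at 9319 ± 1222 with IL-33 and 10.5 ± 3.37 with vehicle, while Mrc1, the mannose receptor, was at -1.48. Of 23 tested ISGF3 targets 16 rose, 1 fell and 6 were not called (median 1.10), and 2 fell without IL-33 mouse 4. Ifit1, an antiviral gene, was at 184 ± 29.5 with IL-33 and 27.5 ± 20.4 with vehicle, where vehicle mouse 6 was the highest at 55.6. Over all lists, 70 genes rose and 21 fell without that mouse. Of 4 tested STAT4 targets 3 rose and 0 fell, and of 8 partners and adaptors 2 rose and 3 fell. Most of these targets also answer other factors, so their counts are no measure of STAT activity.

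**Figure D4:**
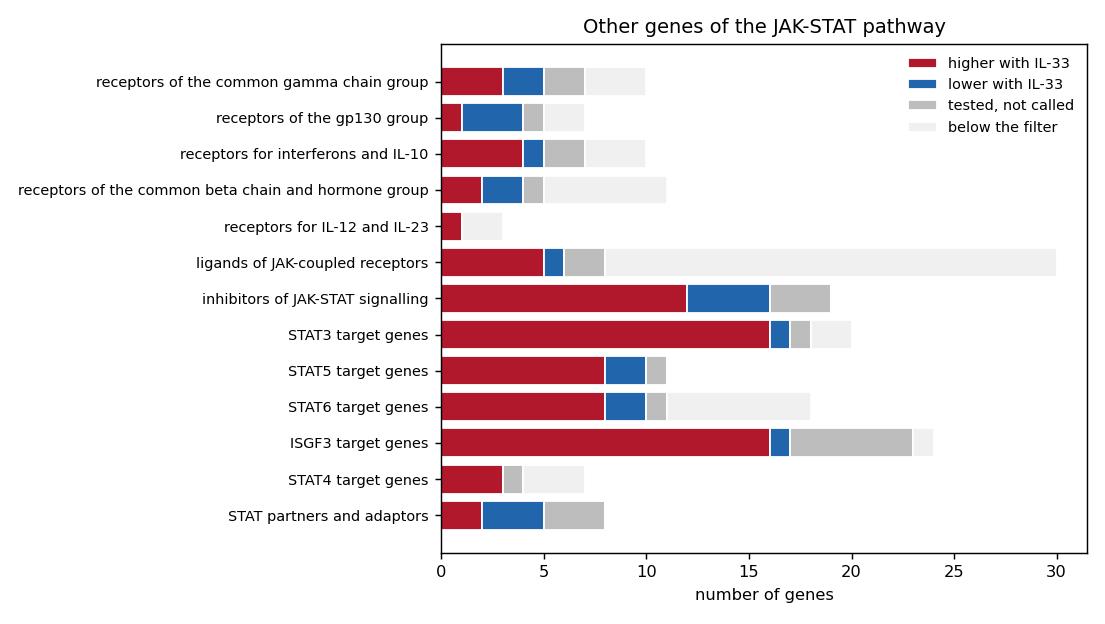
Number of genes in each of the 13 pathway lists that were higher with IL-33 (red), lower (blue), tested and not called (grey) or below the filter on low values (pale). STAT3 targets hold 16 higher of 18 tested, and 3 of the 5 tested gp130 group receptors were lower.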

How the data were processed

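RNA of sorted cortical microglia was sequenced for 8 mice (22% Percoll gradient, sorting, Nugen Ovation RNA-Seq System V2, per the labels' protocols). The signal values are normalized counts deposited by the authors, scaled with a size factor for each mouse. Tools listed in the submitters' processing notes, with no role or order, are DESeq2 1.24.0, HTSeq 0.9.0, STAR 2.6.0 and FastQC, and the listed builds are GRCm38 and mm10. Strand setting and annotation release were not given in the sources read. The table deposited by the authors holds log2 fold changes, a score (Wald statistic), p-values and mean signal, per the file headers. All 8 columns were matched by mouse number. Whole reads were recovered, since 100% of values were multiples of the smallest step within 0.001 reads. Chi-square per degree of freedom between mice of a group was 4 to 18.8, so each counted as 1 replicate.

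Names, exons and coordinates came from GENCODE M21 (GRCm38), where 53706 of 53801 identifiers were found, and promoters from RefSeq (GRCm38.p6). Tests used limma 3.58.1 in R 4.3.3 (trend, robust) on log2(normalized count + 1), with treatment and sex, for genes at 10 or more in at least 4 libraries, Benjamini-Hochberg adjusted over all, two-sided. Fold changes are on that scale and understate low genes. The fit was tested on simulated data in which far fewer genes changed than were called here. That run did not test scaling under so wide a change. Alternatives used edgeR 4.0.16 and DESeq2 1.42.0 on recovered reads. The members and the gene lists (textbook knowledge) were chosen with earlier results of these data known, and 1 gene was taken off a list and is not reported here. The naming rule took all members and, per list, up to 4 called genes of the largest change with a mean of 50 or more, of which the text gives those that bear on the members.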

Additional observations from a re-analysis of the deposited data

Results flagged for a closer look

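In 106 groups of 4 mice (the members and the genes chosen from the lists, in each treatment), 8 single values lay far from the other 3 mice, while chance gives about 1 in 20 groups. None of the 8 belongs to a JAK or STAT member. Vehicle mouse 6 held 4 of them. Its Usp18, an interferon-induced protease gene, was 161.4 against 59.5 to 72.1 in the other vehicle mice, and its Cxcl10, an interferon-induced chemokine gene, was 161.4 against 12.01 to 25.2. Its Lcn2 was 12 where the others had 0, and its Il6ra was 4293 against 5807 to 6050. Vehicle mouse 8 had 25.02 for Il2rg, against 19.6 to 20.2, and 99.1 for Ebi3, against 74.0 to 77.4. Vehicle mouse 7 had 6.41 for Saa3, against 0 to 1.001. IL-33 mouse 3 had 2602 for Ifngr2, against 2815 to 2849 in the other IL-33 mice.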

How the results depend on the processing

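The 20 alternatives changed the model, pseudocount, filter, scaling, test or mice used. In each of them Jak1, Jak2, Tyk2 and Stat3 were called higher, with log2 fold changes of 0.47 to 0.63, 1.64 to 1.76, 0.72 to 0.92 and 0.34 to 0.79. With females alone (2 against 2 mice, vehicle mouse 6 among them), Stat2 (0.24, adjusted p = 0.215) and Stat5a (0.49, adjusted p = 0.0572) were no longer called, a fit with fewer samples. Jak3, never called, turned to -0.061 by quantile normalization, -0.003 by edgeR and -0.17 in females alone, and to -0.030, -0.017, -0.006 and -0.041 without IL-33 mouse 3, IL-33 mouse 4, vehicle mouse 7 and vehicle mouse 8. Without single mice its range was -0.041 to 0.098, and the cause was not tested. Without single mice, 6 members were higher and 0 lower, 60 to 70 pathway genes were higher and 19 to 21 lower, and 7802 to 8443 genes were called in all, 3817 to 4421 higher and 3688 to 4068 lower. The filter was applied anew in each of these fits. A gene that passed it only through the mice of 1 group went untested without any 1 of them. Without vehicle mouse 5, the difference in the IL-33 effect on Stat2, males minus females, was 0.68, against 0.48 with all mice. That fit leaves vehicle mouse 6, which stood apart, as the lone vehicle female and assumes it to vary like the other mice. Levels per kb changed order with transcript length, as given above. In females alone, 8 ISGF3 targets were called higher, against 16 of 23 tested with all mice. Among all genes 21.3% were called higher in females, and vehicle mouse 6 is in that fit. No paired analysis was possible because the mouse numbers are not shared between groups. Depth limits Stat4, with 34 reads in the IL-33 group and 18 in the vehicle group. Stat5a is limited by its possible shared reads.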

Other observations

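Of 30 listed genes of cytokines that signal through JAKs, 22 were below the filter on low values in these cells. Of the 8 tested, 5 rose and 1 fell with IL-33, where 29.2% of all tested genes were called higher and 28.5% lower. Lif, among the 5, passed the filter only through the IL-33 mice. Il12b, a subunit of IL-12 and IL-23, was at 10851 ± 3602 with IL-33 and 8.72 ± 9.71 with vehicle. Ebi3, a subunit of IL-27, was at 918 ± 68.9 with IL-33 and 81.2 ± 12.05 with vehicle, and Il27, its partner subunit, at 96.0 ± 13.8 and 18.8 ± 10.4. Clcf1, a ligand of the gp130 group, was at 269 ± 21.4 with IL-33 and 748 ± 92.2 with vehicle (log2 -1.47).

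The genes whose log2 values over the 8 mice were most like those of Jak2, among 10440 with a mean of 50 or more, were Ncf1, Psd and Gm38357 (Pearson r = 0.998 each). As the mice fall into 2 groups, r mainly reflects the distance between the groups, and 1243 genes had r over 0.95. Ncf1, a subunit gene of the phagocyte oxidase, was at 8100, 7368, 8028 and 7586 in IL-33 mice 1 to 4, against 2797, 3022, 2645 and 3208 in vehicle mice 5 to 8.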
